A study of Mus musculus with 12 samples.

Results

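The RNAs described here encode proteins that steer pre-mRNA splicing, together with 2 RNA-binding proteins that are induced by mild cold. The members were every gene of the deposited table whose symbol is *Srsf*, *Hnrnp* or *Clk1* to *Clk4* with its number or letters, plus *Cirbp*, *Rbm3*, *Ddx5*, *Ddx17*, *Tra2a*, *Tra2b*, *Rbm39* and *Luc7l2*. This gave 43 of the 16346 genes: 11 *Srsf* genes, 20 *Hnrnp* genes, 4 *Clk* genes, the 2 cold-inducible genes and 6 others. The rule used names only and no measured value, but the members were chosen with earlier results of these data known. RNA sequencing was done on livers of C57BL6J mice aged 12 weeks, and every mouse carried the floxed *Med13* allele. Control mice were *Med13*fl/fl, and MED13-LKO mice also carried *Alb*-Cre, which is driven by the albumin promoter and recombines the allele in hepatocytes, so the other liver cells keep *Med13*. Mice of each genotype were fasted overnight for 16 h, or refed for 4 h with normal chow and drinking water holding 30% sucrose or 30% fructose, with 2 mice in each of the 6 groups. The comparisons asked how these RNAs follow feeding, the kind of sugar and the genotype, since MED13 joins the kinase module to the Mediator complex, which links transcription factors to RNA polymerase II.

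SR proteins, the products of the *Srsf* genes, bind exonic sequences and mostly promote the use of nearby splice sites, while hnRNP proteins coat nascent transcripts and often act against them. CLK kinases phosphorylate the serine and arginine repeats of SR proteins and so set where in the nucleus these proteins are and how active they are. Many genes of both families also splice their own transcripts into forms with a premature stop codon, which are degraded by nonsense-mediated decay, or with a retained intron, which stay in the nucleus. CIRBP and RBM3 are small RNA-binding proteins whose RNAs rise when cells are cooled slightly and which follow the daily rhythm of body temperature in the liver.

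Promoter sequence was read from RefSeq on GRCm38.p6, where 39 of the 43 members have an entry. The promoter entries, which begin 250 bases before the start site and run past it, were searched whole on both strands for 3 short motifs. TCCCCGCC, the mild-cold responsive element, was present in 4 of the 39 members (10.3%) and in 6.19% of 27025 genes. CACGTG, the E-box bound by basic helix-loop-helix factors such as the activators of the clock, was present in 7 members (17.9%) and in 8.09% of genes. The matches of *Hnrnph2* and *Hnrnpm* did not lie within the 250 bases before the start site. TGACGTCA, the cyclic AMP response element, was present in 2 members (5.13%) and in 2.03% of genes. CACGTG and TGACGTCA share the letters ACGT but neither holds the other, and a match describes the sequence without showing that a factor binds. The windows of 4 members that changed with feeding are shown because each holds one of the motifs, which is in capitals. *Ddx5*, also called for feeding, holds an E-box too and is not shown, since its window overlaps an untranslated exon of the gene in GENCODE M21 and the motif lies between that exon and the next. The windows shown run 5′ to 3′ on the strand of the gene and leave out bases that GENCODE M21 puts in an exon of the gene. Those of *Cirbp* and *Clk4* also lie within the gene in that annotation, where *Cirbp* begins at base 80165985 and *Clk4* at base 51261730. The *Cirbp* window is chr10:80167589-80167777 on the plus strand, that of *Srsf7* is chr17:80207308-80207555 on the minus strand, that of *Clk4* is chr11:51262864-51263113 on the plus strand and that of *Hnrnpa3* is chr2:75659009-75659258 on the plus strand.
Cirbp: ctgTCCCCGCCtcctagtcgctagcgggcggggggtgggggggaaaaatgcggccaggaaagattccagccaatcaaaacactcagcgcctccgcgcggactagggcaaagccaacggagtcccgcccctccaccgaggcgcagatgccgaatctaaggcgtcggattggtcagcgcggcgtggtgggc
Srsf7: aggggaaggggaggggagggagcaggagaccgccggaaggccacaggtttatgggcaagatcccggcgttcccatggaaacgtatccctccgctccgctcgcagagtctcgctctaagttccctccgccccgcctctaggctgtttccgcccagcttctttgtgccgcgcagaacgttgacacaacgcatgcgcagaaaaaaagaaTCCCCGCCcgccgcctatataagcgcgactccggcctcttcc
Clk4: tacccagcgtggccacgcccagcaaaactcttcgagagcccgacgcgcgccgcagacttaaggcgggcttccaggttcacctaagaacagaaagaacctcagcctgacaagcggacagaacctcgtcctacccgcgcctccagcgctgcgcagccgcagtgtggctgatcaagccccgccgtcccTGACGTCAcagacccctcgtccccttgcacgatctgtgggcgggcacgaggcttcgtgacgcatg
Hnrnpa3: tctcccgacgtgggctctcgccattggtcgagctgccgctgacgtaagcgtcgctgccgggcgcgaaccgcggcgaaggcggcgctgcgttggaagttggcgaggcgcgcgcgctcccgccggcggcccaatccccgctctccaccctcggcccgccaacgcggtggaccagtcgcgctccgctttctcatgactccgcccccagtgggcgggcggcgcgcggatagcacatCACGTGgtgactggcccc
The mild-cold element begins 247 bases before the start site in *Cirbp* and 44 bases before it in *Srsf7*. The cyclic AMP response element of *Clk4* begins 65 bases and the E-box of *Hnrnpa3* 18 bases before the start.

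The values are normalized counts made by the authors from estimated transcript counts, summed per gene. They totalled 21062211 to 24152885 in control libraries and 17309215 to 18738563 in libraries labelled MED13-LKO, and these sums are not read depths. *Med13* RNA showed no fall with the label MED13-LKO. It ran from 578 to 796 in the 6 control libraries and from 646 to 1055 in the 6 libraries labelled MED13-LKO (log2 difference 0.22, limma with Benjamini-Hochberg adjustment, adjusted p = 0.202). Counts per gene do not tell a transcript that lacks the deleted exons from a whole one, and the genotype is therefore given as the label states it. At the level of protein, the authors report that MED13 and MED12 were almost absent from Western blots of MED13-LKO liver nuclei. The p-values set each difference against the spread between mice within groups, pooled over the 6 groups and moderated over all genes tested. Among hepatocyte markers, *Alb* and 5 others (*Apoa1*, *Ttr*, *Cps1*, *Tat* and *Serpina1c*) summed to 1793000 to 3119000 normalized counts per library, and none of the 6 was at 0.

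Feeding changed a small set of members, in both directions. Of the 42 members that could be tested, 5 rose and 7 fell after feeding, averaged over genotypes and sugars, at an adjusted p under 0.05. That is 28.6% of the members, beside 21.8% of the 12366 genes tested (10.7% higher and 11% lower). *Srsf12* alone did not reach the mean of 10 needed for a test, with normalized counts of 0 to 4.92. The median absolute log2 fold change was 0.17 for the members and 0.18 for all genes tested. All values of change are on the log2(normalized count + 1) scale, and all tests are from 1 limma fit of the 12 libraries with Benjamini-Hochberg adjustment over the genes tested. The fasted mice were killed in the late morning and the fed mice in the early afternoon, so feeding and time of day cannot be told apart. Scaling the libraries to equal totals moved the median of all genes from -0.0063 to 0.10 and called 15 members higher and 3 lower. Of the 12 members, 8 were shared, and *Cirbp*, *Ddx5*, *Hnrnpl* and *Rbm39* were no longer called, with adjusted p of 0.138, 0.159, 0.0849 and 0.135. Scaling to equal 75th percentiles called 9 higher and 6 lower. The share of all genes called for feeding under these 2 scalings is not given here. Among cell type markers, 2 of 3 erythroid, 2 of 6 hepatocyte and 1 of 5 sinusoidal endothelial genes were lower after feeding, 1 of 6 stellate cell genes was higher and 1 lower, and the part of these in the members' values was not tested. In a whole tissue, fewer cells of a type and less RNA per cell also cannot be told apart.

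**Figure D1:**
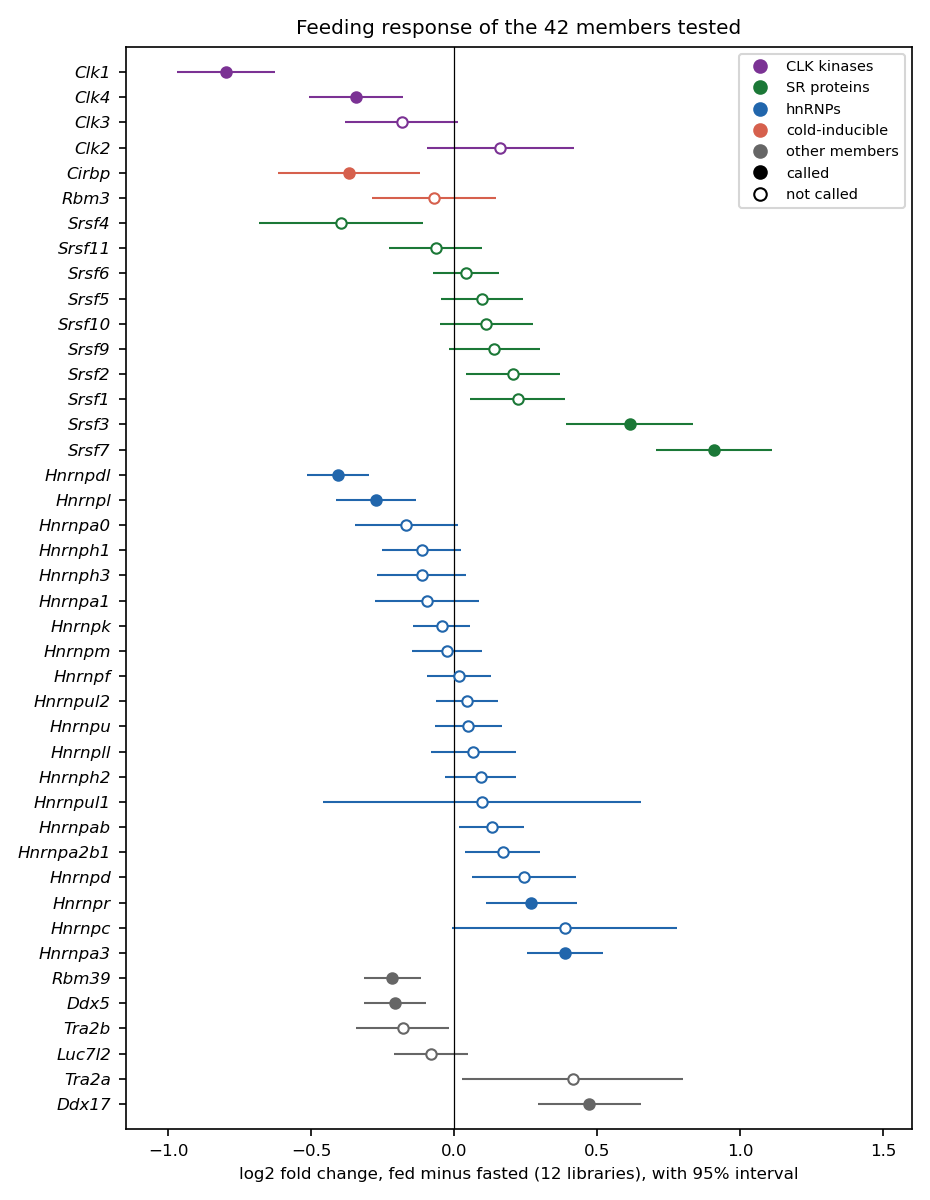
Log2 fold change of the 42 members tested, mean of the 8 fed minus mean of the 4 fasted libraries, averaged over genotypes, on the x axis, with 95% intervals as bars. Filled points are the 12 members called at an adjusted p under 0.05. *Clk1* lies farthest to the left at -0.80 and *Srsf7* farthest to the right at 0.91.

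*Clk1* and *Clk4* fell with feeding. *Clk1* is the best known of the kinases that phosphorylate SR proteins. In control mice its normalized counts were 2023 and 2107 (fasted), 1081 and 1250 (sucrose) and 1204 and 1301 (fructose). Those of mice labelled MED13-LKO were 2044 and 1825 (fasted), 945 and 1134 (sucrose) and 1271 and 1052 (fructose). All 8 fed mice lay below all 4 fasted mice, and the fed level was 0.575 of the fasted level (log2 fold change -0.80, SE 0.077, adjusted p = 0.00013). The fall of *Clk1* passed the test for each sugar in each genotype, from -0.72 with fructose in control mice to -0.90 with sucrose in mice labelled MED13-LKO. *Clk4*, its closest relative, had 1098 and 1245 (fasted), 980 and 1004 (sucrose) and 1029 and 931 (fructose) in control mice. Its values in mice labelled MED13-LKO were 1289 and 1015 (fasted), 759 and 820 (sucrose) and 873 and 928 (fructose). *Clk4* fell to 0.788 of the fasted level (log2 fold change -0.34, SE 0.074, adjusted p = 0.00937), with some overlap between the fed and the fasted mice. Without the second fasted control mouse its adjusted p was 0.0527.

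The other pair of kinases, *Clk2* and *Clk3*, did not pass the test for feeding. *Clk2* had 252 and 177 (fasted), 247 and 218 (sucrose) and 238 and 247 (fructose) in control mice and 228 and 246 (fasted), 299 and 251 (sucrose) and 226 and 289 (fructose) in mice labelled MED13-LKO. Its log2 fold change was 0.16 with a 95% interval from -0.096 to 0.42. *Clk3* had 458 and 592 (fasted), 479 and 467 (sucrose) and 484 and 472 (fructose) in control mice and 418 and 512 (fasted), 442 and 376 (sucrose) and 381 and 370 (fructose) in mice labelled MED13-LKO. The interval of *Clk3* ran from -0.38 to 0.013 around -0.18. Fed and fasted mice overlapped for both genes. Of the 5 other kinases of SR proteins listed (*Srpk1*, *Srpk2*, *Prpf4b*, *Dyrk1a* and *Dyrk1b*), limma with Benjamini-Hochberg adjustment called 0 for feeding, and 1 had an unadjusted p under 0.05.

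Of the 2 cold-inducible genes, *Cirbp* passed the test and *Rbm3* did not. *Cirbp* had 215 and 216 (fasted), 183 and 190 (sucrose) and 132 and 187 (fructose) in control mice. It had 238 and 206 (fasted), 176 and 172 (sucrose) and 178 and 142 (fructose) in mice labelled MED13-LKO. Every fed mouse was below every fasted mouse, the nearest being 190 when fed and 206 when fasted. *Cirbp* fell to 0.774 of the fasted level (log2 fold change -0.37, SE 0.11, adjusted p = 0.0398). This call was close to the threshold and was lost in 9 of the 12 fits that left out 1 mouse, with adjusted p up to 0.142. The mice whose removal kept it were the 2 control mice given fructose and the first mouse labelled MED13-LKO given fructose. *Rbm3* had 1696 and 1560 (fasted), 1666 and 1508 (sucrose) and 1545 and 1210 (fructose) in control mice and 1286 and 1261 (fasted), 1085 and 1494 (sucrose) and 1375 and 1181 (fructose) in mice labelled MED13-LKO. Its fed and fasted values overlapped, and its log2 fold change was -0.072 (95% interval -0.29 to 0.15, adjusted p = 0.636), with the opposite sign (0.035) under equal totals. The response of *Cirbp* minus that of *Rbm3* was -0.30, a description without a test.

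Some clock and heat shock RNAs also passed in the same comparison, in which 10.7% of all genes rose and 11% fell. Of 13 clock genes tested, 2 rose and 6 fell with feeding, led by *Ciart* (-1.21) and *Per1* (-1.19), both repressors of the clock, and by *Bhlhe40* (1.18), a repressor that also answers to feeding. Of 11 heat shock genes tested, 3 rose and 0 fell, with 0 lower at an unadjusted p under 0.05 as well in limma. They were the chaperones *Hsp90aa1* (0.57), *Hspa8* (0.31) and *Hsp90ab1* (0.17). The part of either in the changes of *Cirbp* and the *Clk* genes was not tested.

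Among SR proteins, *Srsf7* and *Srsf3* rose and the other 8 tested did not pass the test. *Srsf7* and *Srsf3* are close relatives that also take part in mRNA export and in the choice of the poly(A) site. *Srsf7* had 164 and 136 (fasted), 242 and 249 (sucrose) and 196 and 182 (fructose) in control mice. The values with the label MED13-LKO were 120 and 112 (fasted), 289 and 292 (sucrose) and 251 and 314 (fructose). The lowest fed value, 182, was above the highest fasted value, 164. The rise was 1.88-fold (log2 fold change 0.91, SE 0.091, adjusted p = 0.000155), and it passed with sucrose in control mice (0.71) and with sucrose (1.32) and fructose (1.27) in mice labelled MED13-LKO. *Srsf3* had 1027 and 897 (fasted), 1410 and 1478 (sucrose) and 1417 and 1100 (fructose) in control mice. In mice labelled MED13-LKO it had 1060 and 857 (fasted), 1330 and 1754 (sucrose) and 1600 and 1736 (fructose). Again no fed mouse reached down to the fasted mice, and the rise was 1.53-fold (log2 fold change 0.61, SE 0.10, adjusted p = 0.00233). *Srsf3* passed with both sugars in mice labelled MED13-LKO, at 0.68 and 0.81.

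*Srsf1*, the founding SR protein, had 629 and 710 (fasted), 877 and 902 (sucrose) and 1002 and 840 (fructose) in control mice and 841 and 1020 (fasted), 939 and 892 (sucrose) and 916 and 979 (fructose) in mice labelled MED13-LKO. The 2 fasted control mice were the lowest of the 12. *Srsf5* had 4191 and 4536 (fasted), 6187 and 5480 (sucrose) and 4560 and 5184 (fructose) in control mice and 5860 and 5352 (fasted), 5313 and 5821 (sucrose) and 5260 and 4618 (fructose) in mice labelled MED13-LKO. Of the comparisons made, *Srsf5* passed for sucrose against fasting in control mice alone (log2 fold change 0.42, SE 0.10, adjusted p = 0.0375). *Srsf6* had 1440 and 1407 (fasted), 1704 and 1607 (sucrose) and 1819 and 1629 (fructose) in control mice and 1860 and 1700 (fasted), 1772 and 1725 (sucrose) and 1495 and 1391 (fructose) in mice labelled MED13-LKO, with overlapping fed and fasted values. *Srsf4* had the lowest log2 fold change of the family, -0.40, and an adjusted p of 0.052. The remaining tested members, *Srsf2*, *Srsf9*, *Srsf10* and *Srsf11*, had log2 fold changes from -0.065 to 0.21 with adjusted p from 0.0737 upward.

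Of the 20 hnRNP genes, 2 fell, 2 rose and 16 did not pass. *Hnrnpdl*, a relative of AUF1, the product of *Hnrnpd*, fell most of the family. Its control values were 1629 and 1645 (fasted), 1154 and 1311 (sucrose) and 1406 and 1382 (fructose). The values in mice labelled MED13-LKO were 1648 and 1613 (fasted), 1109 and 1116 (sucrose) and 1227 and 1183 (fructose). All 8 fed mice were below all 4 fasted mice, whose values lay within 1613 to 1648 (log2 fold change -0.41, SE 0.048, adjusted p = 0.000426). *Hnrnpl*, which binds CA-rich RNA, had 1089 and 1160 (fasted), 918 and 927 (sucrose) and 1067 and 966 (fructose) in control mice and 1172 and 1026 (fasted), 1040 and 910 (sucrose) and 808 and 754 (fructose) in mice labelled MED13-LKO. *Hnrnpl* fell to 0.827 of the fasted level (log2 fold change -0.27, SE 0.063, adjusted p = 0.0129), and 2 fed mice, at 1067 and 1040, lay among the fasted mice. Without the second fasted control mouse or the first fasted mouse labelled MED13-LKO, the adjusted p of *Hnrnpl* was 0.0625 and 0.0606.

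*Hnrnpa3*, of the A/B family that also carries mRNA in the cytoplasm, rose. Its control values were 2557 and 2398 (fasted), 3061 and 3597 (sucrose) and 2950 and 2616 (fructose). The mice labelled MED13-LKO had 2093 and 1995 (fasted), 2839 and 2742 (sucrose) and 2797 and 3047 (fructose). Fed and fasted mice did not overlap (log2 fold change 0.39, SE 0.060, adjusted p = 0.00176). Of its 31-base subsequences 28.1% also occur elsewhere, and its processed copy *Gm5641* lies wholly within its sequence, has 1134 to 2283 normalized counts and rose by 0.50 in the same comparison, so reads from the shared sequence cannot be told apart here. *Hnrnpr* had 422 and 382 (fasted), 516 and 435 (sucrose) and 456 and 519 (fructose) in control mice and 463 and 457 (fasted), 549 and 608 (sucrose) and 542 and 539 (fructose) in mice labelled MED13-LKO. *Hnrnpr* rose 1.21-fold (log2 fold change 0.27, SE 0.071, adjusted p = 0.0238) with overlap between fed and fasted mice. That call was lost in 4 of 12 fits that left out 1 mouse, namely either fasted mouse labelled MED13-LKO, the second fasted control mouse or the second mouse labelled MED13-LKO given sucrose, with adjusted p from 0.054 to 0.104. *Hnrnpd*, the relative of *Hnrnpdl*, had a log2 fold change of 0.24 (adjusted p = 0.0588), which is 0.65 above that of *Hnrnpdl*. The 2 genes lie on chromosome 5 of GRCm38 with 54.6 kb between them.

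Of the other members, *Ddx17* rose and *Ddx5* and *Rbm39* fell. *Ddx5* and *Ddx17* encode closely related RNA helicases that open structures at splice sites and act as transcriptional coregulators. *Ddx5* had 12500 and 13040 (fasted), 11380 and 11730 (sucrose) and 12010 and 12080 (fructose) in control mice and 15750 and 14620 (fasted), 12080 and 12590 (sucrose) and 13080 and 11620 (fructose) in mice labelled MED13-LKO. *Ddx5* fell to 0.867 of the fasted level (log2 fold change -0.21, SE 0.049, adjusted p = 0.0147), and 21.1% of its 31-base subsequences occur in other genes. The adjusted p of *Ddx5* was 0.0723 without the second fasted control mouse and 0.0674 without the first fasted mouse labelled MED13-LKO. *Ddx17* had 395 and 457 (fasted), 857 and 982 (sucrose) and 826 and 709 (fructose) in control mice. The values under the MED13-LKO label were 962 and 770 (fasted), 795 and 750 (sucrose) and 919 and 909 (fructose). The 2 fasted control mice stood far below the other 10 libraries, which lay between 709 and 982. The averaged rise of *Ddx17* was 1.39-fold (log2 fold change 0.47, SE 0.081, adjusted p = 0.00306), and in mice labelled MED13-LKO the fed and fasted values overlapped.

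*Rbm39*, a splicing factor related to U2AF, had 2637 and 2579 (fasted), 2555 and 2452 (sucrose) and 2402 and 2179 (fructose) in control mice and 3036 and 2979 (fasted), 2435 and 2307 (sucrose) and 2437 and 2531 (fructose) in mice labelled MED13-LKO. Every fed mouse was below every fasted mouse, though by little (log2 fold change -0.22, SE 0.045, adjusted p = 0.0081). *Luc7l2*, a partner of the U1 particle, had 2193 and 2127 (fasted), 2099 and 2092 (sucrose) and 2054 and 2194 (fructose) in control mice and 2540 and 2158 (fasted), 1987 and 2220 (sucrose) and 2253 and 2115 (fructose) in mice labelled MED13-LKO. It did not pass (log2 fold change -0.081, SE 0.058, adjusted p = 0.347), and its sign turned (0.026) under equal totals. The transformer relatives *Tra2a* and *Tra2b* activate exons rich in GAA. *Tra2a* had 210 and 186 (fasted), 217 and 265 (sucrose) and 307 and 173 (fructose) in control mice and 195 and 213 (fasted), 218 and 242 (sucrose) and 310 and 522 (fructose) in mice labelled MED13-LKO, where the highest value, 522, came from 1 mouse given fructose. *Tra2b* had 867 and 747 (fasted), 741 and 764 (sucrose) and 744 and 598 (fructose) in control mice and 933 and 875 (fasted), 749 and 818 (sucrose) and 823 and 802 (fructose) in mice labelled MED13-LKO. Neither passed, with log2 fold changes of 0.41 and -0.18 and adjusted p of 0.119 and 0.103.

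**Figure D2:**
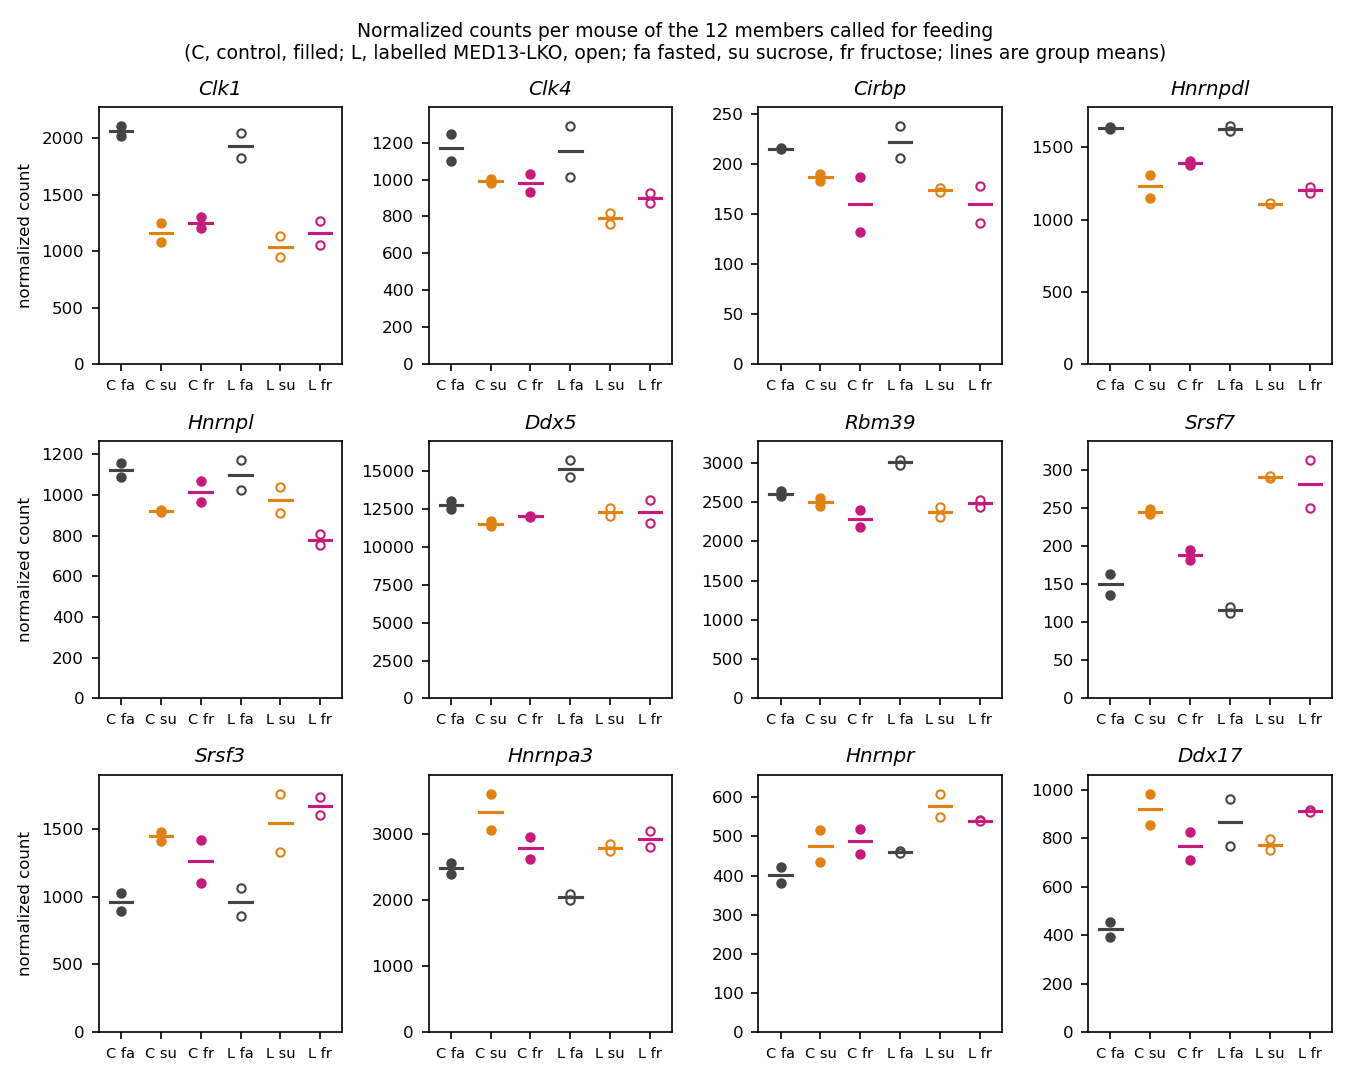
Normalized counts on the y axis, from 0, for each mouse of the 6 groups on the x axis, for the 12 members called for feeding. Points are mice, lines are the means of 2 mice. The 4 fasted mice lie above all fed mice for *Clk1*, *Cirbp*, *Hnrnpdl* and *Rbm39* and below them for *Srsf7*, *Srsf3* and *Hnrnpa3*, and for *Ddx17* the 2 fasted control mice lie alone at 395 and 457.

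Within each genotype and sugar the counts of members called were smaller. In control mice 6 members (14.3%) passed for sucrose against fasting, beside 8.57% of all genes, and 2 (4.76%) passed for fructose, beside 5.6%. The 6 were *Srsf5*, *Srsf7*, *Hnrnpa3* and *Ddx17*, which rose, and *Clk1* and *Hnrnpdl*, which fell, and the 2 were *Clk1* and *Ddx17*. In mice labelled MED13-LKO 7 members (16.7%) passed for sucrose, beside 5.71% of all genes, and 6 (14.3%) for fructose, beside 6.53%. With sucrose *Srsf7*, *Srsf3* and *Hnrnpa3* rose and *Clk1*, *Clk4*, *Hnrnpdl* and *Rbm39* fell. With fructose the same 3 rose, and *Clk1*, *Hnrnpdl* and *Hnrnpl* fell. Of the 26 calls between 2 single groups, those between genotypes within a diet included, 7 were kept in every fit that left out 1 mouse of the groups compared. These were *Clk1*, *Hnrnpdl* and *Srsf7* with sucrose and *Srsf7* with fructose in mice labelled MED13-LKO, *Clk1* and *Ddx17* with sucrose in control mice, and the difference of *Ddx17* between fasted genotypes. The other 19 were lost in 1 to 4 of 4 such fits, with adjusted p up to 0.267. Within a genotype both sugars were compared with the same 2 fasted mice. A member called in 1 genotype and not in the other is not shown to differ between them by these counts.

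No member passed the direct comparison of the sugars. Of the members, 0 passed for fructose against sucrose, averaged over genotypes, beside 0.0404% of all genes in limma with Benjamini-Hochberg adjustment. At an unadjusted p under 0.05 there were 3 members (7.14%), beside 9.48% of all genes. They were *Srsf5* (-0.22, adjusted p = 0.435), *Hnrnpa2b1* (0.18, adjusted p = 0.468) and *Hnrnpdl* (0.15, adjusted p = 0.468). For *Srsf5* the 4 mice given fructose (4560 to 5260) all lay below the 4 given sucrose (5313 to 6187). For *Clk1* the 95% interval of the difference ran from -0.065 to 0.33, and for *Cirbp* from -0.47 to 0.10.

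Between the genotypes *Ddx17*, *Hnrnpa0* and *Hnrnpr* were higher on average in the libraries labelled MED13-LKO. Averaged over the diets, these 3 members (7.14%) passed, beside 25.3% of all genes tested (12.1% higher and 13.2% lower), and 0 were lower. At an unadjusted p under 0.05 in limma there were 14 members (33.3%), beside 37% of all genes. Their values were *Ddx17* (log2 fold change 0.34, SE 0.076, adjusted p = 0.00923), *Hnrnpa0* (log2 fold change 0.25, SE 0.076, adjusted p = 0.0395) and *Hnrnpr* (log2 fold change 0.21, SE 0.067, adjusted p = 0.0445). *Hnrnpa0*, an A/B protein that binds AU-rich elements, had 842 and 923 (fasted), 977 and 761 (sucrose) and 881 and 807 (fructose) in control mice. In mice labelled MED13-LKO it had 1101 and 1239 (fasted), 1003 and 864 (sucrose) and 950 and 1018 (fructose), with overlap between the genotypes. *Ddx17* and *Hnrnpr*, given by mouse above, also overlapped between the genotypes. For *Ddx17* the fasted group means were 426 in control mice and 866 in mice labelled MED13-LKO, and those with fructose were 767 and 914. With sucrose the order turned, at 919.5 in control mice and 772.7 in mice labelled MED13-LKO. Leaving out 1 mouse ended the call of *Hnrnpa0* in 8 and that of *Hnrnpr* in 10 of 12 fits, with adjusted p up to 0.109 and 0.117, and that of *Ddx17* in none of the 12. The cold-inducible genes did not pass (*Rbm3* -0.26, adjusted p = 0.0673, *Cirbp* -0.017, adjusted p = 0.923). Of the *Clk* genes 0 passed, and 2 had an unadjusted p under 0.05 in limma, *Clk3* at -0.24 (adjusted p = 0.0575) and *Clk4* at -0.16 (adjusted p = 0.122).

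The genotype difference of these RNAs depended on how the libraries were scaled. The control libraries held larger totals, with 49.3% to 53.5% of the counts in the top 100 genes, against 44.6% to 46.4% in those labelled MED13-LKO. Scaling all libraries to equal totals moved the median log2 difference of all genes from 0.0058 to 0.32, and the median of the members from 0.051 to 0.37. Then 37 members passed, all of them higher, beside 60.7% of all genes. Of the 42 members, 19 changed sign under that scaling. Among the cold-inducible and *Clk* genes, these were *Cirbp*, *Rbm3*, *Clk1*, *Clk3* and *Clk4*, at 0.30, 0.060, 0.19, 0.072 and 0.16. Cell type markers moved between the genotypes too. Of the hepatocyte markers 5 of 6 were lower, and their sum was 2378000 to 3119000 in control and 1793000 to 2190000 in libraries labelled MED13-LKO. Of the Kupffer cell markers 2 of 6 were higher, *Marco* by 1.22 and *Cd5l* by 0.63, with sums of 2972 to 4147 and 4031 to 5360. Sinusoidal endothelial markers were higher in 3 of 5, stellate markers lower in 3 of 6 and erythroid markers lower in 2 of 3. The leukocyte marker *Ptprc* was higher by 0.33 (1 of 2 tested), and the cholangiocyte marker *Spp1* was lower at -0.33 (1 of 4 tested). Mitochondrial mRNAs were lower in 11 of 13. With equal totals, 1 hepatocyte marker and 1 mitochondrial mRNA were lower, and all 6 Kupffer and 5 endothelial markers were higher. The part of these in the values of the members was not tested.

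**Figure D3:**
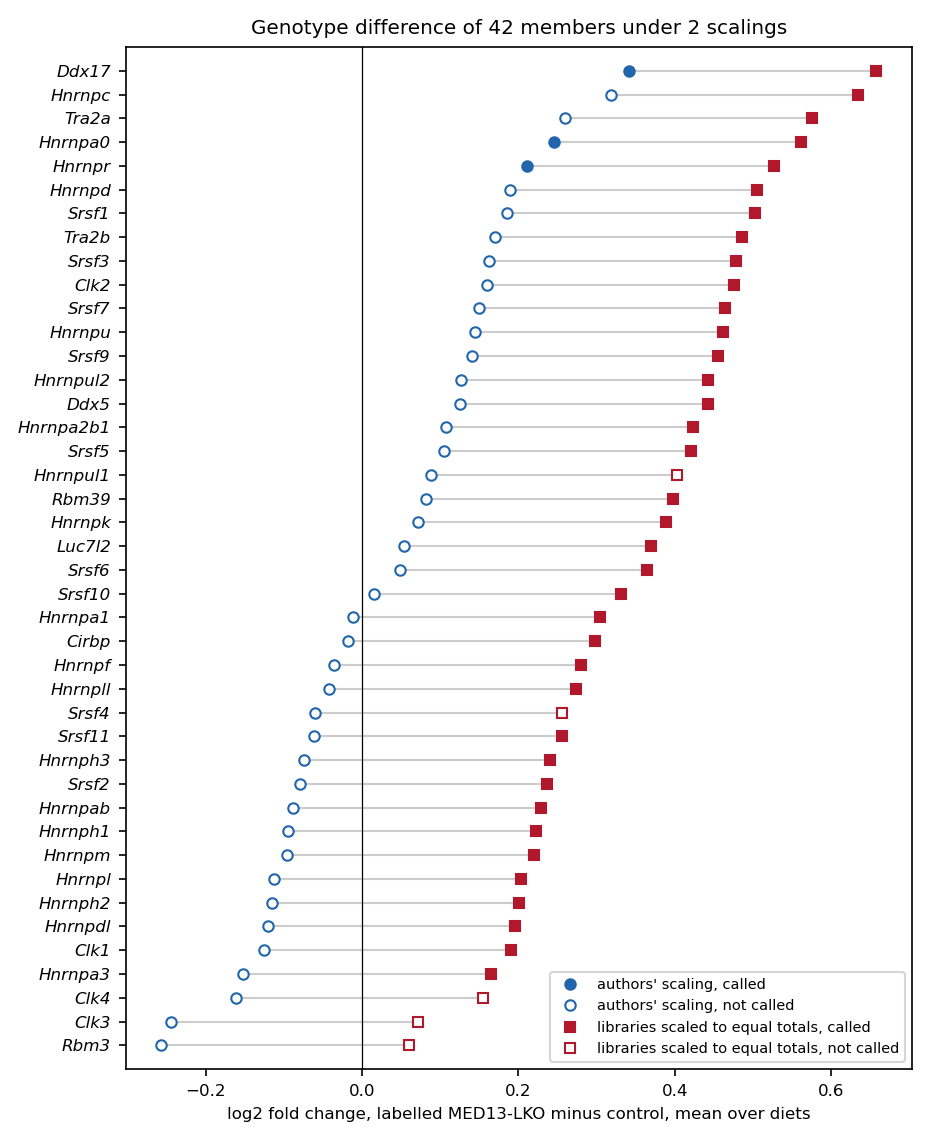
Log2 difference of the 42 members tested, libraries labelled MED13-LKO minus control, averaged over diets, on the x axis. Circles use the authors' scaling and squares libraries scaled to equal totals, and filled symbols are called at an adjusted p under 0.05. *Ddx17* moves from 0.34 to 0.66 and *Rbm3* from -0.26 to 0.060, and 3 circles but 37 squares are filled.

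The genotypes were also compared within each diet. In the fasted mice 4 members (9.52%) were higher in the libraries labelled MED13-LKO, beside 8.98% of all genes. *Ddx17* differed most (log2 fold change 1.02, SE 0.13, adjusted p = 0.00169), followed by *Srsf1* (log2 fold change 0.47, SE 0.12, adjusted p = 0.0392), *Hnrnpu* (log2 fold change 0.38, SE 0.086, adjusted p = 0.0246) and *Srsf6* (log2 fold change 0.32, SE 0.085, adjusted p = 0.0443). Of these 4 calls, only that of *Ddx17* was kept in every fit that left out 1 fasted mouse. In those fits *Srsf1* ran from 0.33 to 0.61, *Hnrnpu* from 0.33 to 0.42 and *Srsf6* from 0.26 to 0.39. *Hnrnpu*, a scaffold protein of nuclear RNA, had 1885 and 2005 (fasted), 2261 and 2259 (sucrose) and 2451 and 2122 (fructose) in control mice. In mice labelled MED13-LKO it had 2588 and 2467 (fasted), 2290 and 2340 (sucrose) and 2409 and 2229 (fructose). With sucrose 0 members passed in limma, beside 6.03% of all genes, and 3 had an unadjusted p under 0.05. With fructose 1 member (2.38%), *Srsf7*, was higher (log2 fold change 0.57, SE 0.15, adjusted p = 0.0452), beside 7.69% of all genes. That call was lost in each of the 4 fits that left out 1 of the 4 fructose mice, with adjusted p up to 0.267.

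The feeding responses were set against each other in the 2 genotypes. Fed minus fasted, *Ddx17* was 0.98 in control mice and -0.035 in mice labelled MED13-LKO. *Srsf7* was 0.52 and 1.29 in the same order. *Hnrnpul1*, the member with the widest spread between mice, was 0.55 and -0.36 (difference -0.91, SE 0.50, adjusted p = 0.607). The test of the difference itself passed for 0 of the members, beside 0.0404% of all genes, in limma with Benjamini-Hochberg adjustment. At an unadjusted p under 0.05 there were 6 members (14.3%), beside 9.49% of all genes. Those were *Ddx17* (difference -1.01, SE 0.16, adjusted p = 0.106), *Srsf7* (difference 0.77, SE 0.18, adjusted p = 0.208), *Srsf6* (difference -0.41, SE 0.10, adjusted p = 0.265), *Hnrnpu* (difference -0.35, SE 0.10, adjusted p = 0.33), *Srsf5* (difference -0.38, SE 0.13, adjusted p = 0.372) and *Srsf1* (difference -0.43, SE 0.15, adjusted p = 0.399). Apart from *Srsf7*, both fasted mice labelled MED13-LKO lay above both fasted control mice for each of these genes, which enters the difference in response. The sign of the response was the same in the genotypes for 34 of the 42 members, and the share among all genes is not given here. Responses near 0 count too, such as *Srsf1* at 0.43 in control mice and 0.0081 in mice labelled MED13-LKO. *Rbm3* was at -0.14 and -0.00012 in the same order. *Clk1* had responses of -0.78 and -0.82, with an interval of the difference from -0.39 to 0.30. For *Cirbp* the responses were -0.33 and -0.41, with an interval from -0.58 to 0.41.

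**Figure D4:**
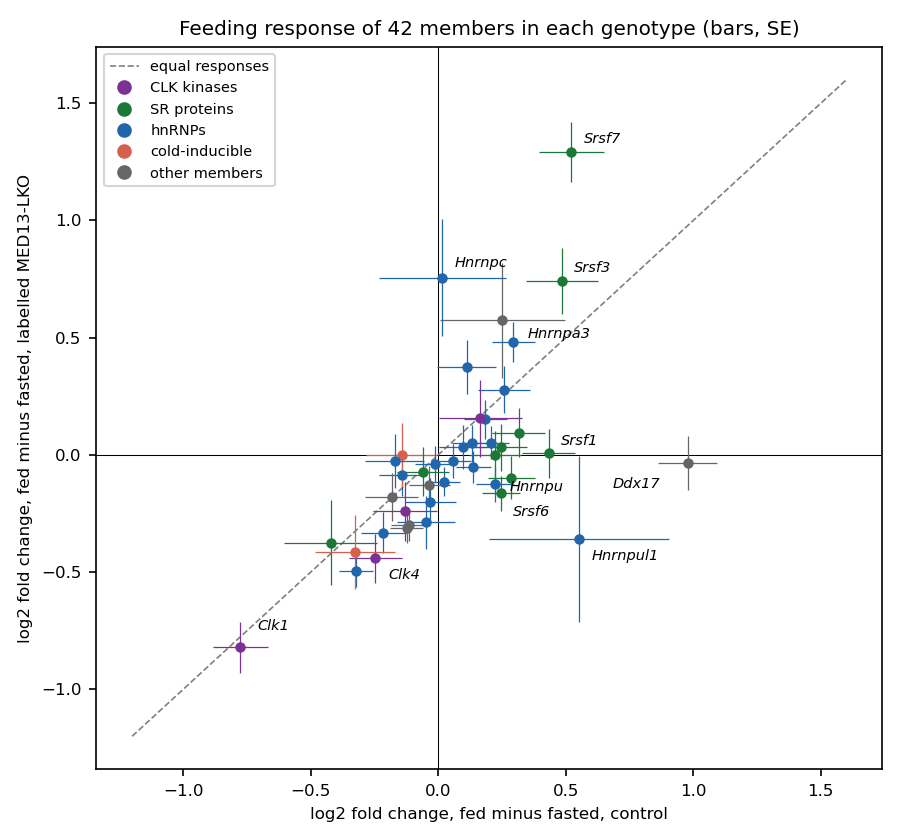
Log2 fold change, fed minus fasted with the sugars pooled, in control mice on the x axis and in mice labelled MED13-LKO on the y axis, for the 42 members tested, with standard errors as bars and the line of equal responses dashed. *Ddx17* lies far below the line at 0.98 and -0.035, *Srsf7* above it at 0.52 and 1.29, and *Clk1* near it at -0.78 and -0.82.

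Other genes of the splicing machinery were read beside the 10.7% of all genes that rose and the 11% that fell with feeding. Of 44 core spliceosome genes tested, 9 rose and 35 did not pass, with a median log2 fold change of 0.096 beside -0.0063 for all genes. With equal 75th percentiles 12 rose and with equal totals 17. The largest changes were in *Snrpa* (0.64), of the U1 particle, *U2af1* (0.58), which reads the 3′ splice site, and *Prpf31* (0.50), of the tri-snRNP. Of 24 other genes with serine and arginine repeats, 2 rose and 3 fell, with *Rsrp1* (-0.60), the matrix protein *Pnn* (0.43) and the cyclin *Ccnl1* (-0.39) foremost. Of 31 other splicing regulators, 5 rose and 6 fell, led by *Rbm47* (-0.50), *Pcbp2* (-0.46) and the muscleblind gene *Mbnl2* (-0.41). Of 14 genes of nonsense-mediated decay and the exon junction complex, 1 rose and 2 fell, namely *Smg5* (0.28), *Smg1* (-0.42), the kinase of UPF1, and *Upf3a* (-0.36). The 7 kinase module genes of Mediator included 2 that fell, *Med13l* (-0.45) and *Cdk8* (-0.42).

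Between the genotypes the direction of the core spliceosome list depended on the scaling. All lists here were read beside the 12.1% of all genes that were higher and the 13.2% that were lower. Of the 44, 6 were lower and 38 did not pass, with a median of -0.053 beside 0.0058 for all genes. With equal 75th percentiles 2 were lower, beside 25% of all genes called in either direction. With equal totals 35 were higher and 0 lower, beside 60.7% of all genes called in either direction. The median of the list was then 0.26 beside 0.32 for all genes. Genes of the Sm ring led, *Snrpd2* (-0.31), *Snrpd3* (-0.29) and *Snrpg* (-0.24). Of the 24 serine and arginine genes, 4 were higher and 3 lower, with *Clasrp* (2.74, SE 0.77), *Rsrc1* (-0.32) and *Thrap3* (0.27) foremost. The kinases *Srpk1* (-0.38) and *Prpf4b* (-0.19) were lower. Among the other regulators 1 was higher, *Tardbp* (0.25), and 3 were lower, led by *Rbm47* (-0.40) and *Pcbp2* (-0.26). Of the 14 decay genes 0 passed in limma, and 2 had an unadjusted p under 0.05. Among the 7 kinase module genes 1 was higher, *Med12l* (2.475, SE 0.56), and 6 did not pass. With equal totals 5 of these 7 were higher. Clock genes were lower in 6 of 13, led by *Nr1d1* (-0.80), *Ciart* (-0.71) and *Dbp* (-0.69), and heat shock genes in 3 of 11. With equal totals, 17 of the serine and arginine genes, 23 of the 31 other regulators, 10 of the decay genes and 5 clock and 5 heat shock genes were higher, and 1 clock and 1 heat shock gene lower.

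The members share features of transcript structure that the rule did not use. In GENCODE M21, 30 of the 42 tested members (71.4%) have a transcript annotated for nonsense-mediated decay, against 28.6% of the 12089 protein-coding genes tested. A retained intron is annotated in 78.6% and 58.8%, and both forms in 66.7% and 22.6%. The members also have more annotated transcripts, with medians of 9 and 5. *Clk1* has 13, of which 1 is protein coding, 2 are for decay and 7 retain an intron, and *Srsf3* has 10, of which 1 is protein coding. The deposited values sum all transcripts of a gene, so a change in *Clk1* or *Srsf7* cannot be assigned to one of these forms. Sequence shared with other genes was highest for *Hnrnpf* (38.5%), *Hnrnpa1* (29.3%) and *Hnrnpa3* (28.1%), and it was 0 for *Cirbp*, *Ddx17*, *Srsf1*, *Srsf4*, *Srsf6*, *Srsf9*, *Hnrnpa0* and *Hnrnpu*. It was 0.94% for *Clk1*, 2.35% for *Srsf7* and 13.8% for *Srsf3*. There are 5 pairs of members that lie within 500 kb of each other, the nearest being *Hnrnpd* and *Hnrnpdl*, followed by *Hnrnpll* and *Srsf7* on chromosome 17, 137.7 kb apart.

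The spread between mice of a group differed among the members tested. The standard deviation of log2 values within groups was lowest for *Hnrnpk* (0.051) and *Rbm39* (0.053) and highest for *Hnrnpul1* (0.51), *Hnrnpc* (0.35) and *Tra2a* (0.34). For *Hnrnpul1* the 12 libraries ran from 111 to 371, and a log2 fold change with feeding of 0.097 had a 95% interval from -0.46 to 0.65. *Hnrnpc*, which binds uridine tracts and holds back cryptic exons, ran from 186 to 520 (0.39, interval -0.0074 to 0.78). At the other end *Hnrnpk* ran from 2488 to 2948 and *Hnrnpf* from 4024 to 4570, and for *Hnrnpk* the interval of the feeding response was -0.14 to 0.054.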

How the data were processed

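Livers of 12 mice were profiled by RNA sequencing. The deposited table holds normalized counts per gene, a signal on the scale of counts that the authors made by trimming with Trim Galore 0.6.5, pseudoalignment with kallisto 0.46.0 and scaling with DESeq2 1.24.0, on mm10 per the submitters' processing notes. The transcript annotation and strandedness are not given in the sources used here. Values sum all transcripts of a gene, and raw depth is unknown.

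Values were tested as log2(normalized count + 1) with limma 3.58.1 in R 4.3.3 (intensity-dependent prior variance), in 1 fit of 6 groups, for the 12366 genes whose mean reached 10. Benjamini-Hochberg adjustment ran over these genes, and calls were made at an adjusted p under 0.05. The fit was tested on simulated data. Values by mouse were given for the cold-inducible, *Clk* and other members and for called *Srsf* and *Hnrnp* genes. The members and gene lists were chosen with earlier results of these data known. Sharing of 31-base subsequences and transcript types came from GENCODE M21, promoters from RefSeq. Alternatives were pseudocounts of 0.1 and 10, no filter, 2 other scalings, a replicate block, fits of only the groups compared, summed copies and leaving out each mouse.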

Additional observations from a re-analysis of the deposited data

Results flagged for a closer look

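The feeding response of *Hnrnpu* had opposite signs in the genotypes. It was 0.22 (SE 0.074) in control mice and -0.13 (SE 0.074) in mice labelled MED13-LKO. The sign was the same in the genotypes for 34 of the 42 members, so *Hnrnpu* was not alone in this. All 4 fed control mice lay above both fasted control mice, and all 4 fed mice labelled MED13-LKO lay below both fasted mice of that label, which gives a response in mice labelled MED13-LKO minus that in control mice of -0.349 on the log2 scale. The test of this difference did not pass (limma, Benjamini-Hochberg adjusted p = 0.330).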

How the results depend on the processing

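Pseudocounts, summed copies and the filter kept the number of members called within 1.5 times of the reported one, except that no filter left 0 called between genotypes with fructose. Summed copies called 4 between genotypes on average, with *Hnrnpa3* lower in addition. Equal totals called 37 members between genotypes on average, beside 60.7% of all genes. Within diets it called 24 members when fasted, 9 with sucrose and 22 with fructose, beside 33.4%, 18.1% and 27.9% of all genes. In control mice it called 11 for sucrose and 7 for fructose, beside 10.5% and 6.95% of all genes. Equal 75th percentiles called 6 between genotypes on average, beside 25% of all genes. Fitting only the groups compared left 3 for sucrose and 0 for fructose in control mice, beside 5.64% and 0.218% of all genes. Between genotypes it left 2 when fasted and 0 with fructose, beside 7.16% and 1.32% of all genes. Replicate numbers did not pair the mice (correlations from -0.14 to 0.048). The replicate block left 1 member between genotypes on average, beside 23.7% of all genes. With fructose, chosen after seeing the data, the block within the groups compared called 0. Crossing the numbers called 1, which was *Tra2a* and not *Srsf7*. The replicate block over all libraries called *Hnrnpl* with fructose in place of *Srsf7*. Under equal totals the difference between genotypes turned sign for 19 of the 42 members, among them *Cirbp* (0.30), *Rbm3* (0.060), *Clk1* (0.19), *Clk3* (0.072) and *Clk4* (0.16), and the feeding response for 6, *Rbm3* (0.035), *Luc7l2* (0.026), *Hnrnpa1*, *Hnrnpk*, *Hnrnpm* and *Srsf11*, none of them called for feeding. That of *Cirbp* between genotypes also turned with equal 75th percentiles (0.0037) and without the second control fructose mouse (0.066) or the second fasted (0.017) or fructose (0.038) mouse labelled MED13-LKO, within a range of -0.10 to 0.066 when 1 mouse was left out. The cause was not tested. Leaving out 1 mouse gave 7 to 16 members for feeding (7 without the second fasted control mouse, 16 without the second control fructose mouse), 1 to 6 between genotypes, 0 to 0 for the interaction and for fructose against sucrose, 2 to 3 and 0 to 5 for sucrose and fructose in control mice, 3 to 5 and 1 to 8 in mice labelled MED13-LKO, and 1 to 2, 0 to 0 and 0 to 1 between genotypes when fasted, with sucrose and with fructose. With 2 mice a group, a mouse left alone was assumed to vary like the other groups. Raw depth is unknown, so counting error has no value here.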
